A study of Mus musculus with 4 samples.

Results

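The genes described here are the ligands and receptors of the 4 classical axon guidance systems, as they were read in the sympathetic ganglia (SG) of cold-exposed mice. Members were chosen by name only: semaphorins of classes 3 to 7, plexins, neuropilins, ephrins, Eph receptors, Slits, Robos, netrins, Dcc and the Unc5 receptors. The names matched 70 of the 17667 genes listed in at least 1 library, of which 69 code for proteins. The remaining match was *Plxna4os1*, an antisense RNA at the *Plxna4* locus that held at most 2 reads in any library, and since strand-aware counting is not stated its reads cannot be told apart from those of *Plxna4*. The members were 20 semaphorins, 9 plexins, 2 neuropilins, 8 ephrins, 14 Eph receptors, 3 Slits, 4 Robos, 4 netrins, 4 Unc5 receptors and Dcc.

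The data are 4 libraries of mRNA, from ganglia of thoracic levels T1 to T4, all of C57BL/6 mice at 12 weeks of age after 1 day at 5 °C, each made from the pooled ganglia of 6 mice. WT mice gave 2 libraries (WT 1 and WT 2), while TRKC+/- mice and AdNTF3-Tg mice gave 1 library each. TRKC+/- mice are haploinsufficient, throughout the body, for TRKC, the receptor of neurotrophin-3 (NT-3) that *Ntrk3* encodes. AdNTF3-Tg mice carry the NT-3 coding sequence behind a fragment of the adiponectin promoter, a construct made for expression in adipocytes and not in ganglion cells. All groups shared the cold exposure, so no library shows the level without cold. The labels do not say which WT library belongs to which mutant, and each mutant was therefore compared with both.

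Growing axons read guidance molecules through receptors at the growth cone. Class 3 semaphorins are secreted and bind neuropilins, which signal through plexins, whereas most other semaphorins are membrane proteins that bind plexins directly. Ephrins and Eph receptors both sit in membranes and signal on contact. Slits bind Robos such as Robo1 and Robo2. The classical netrin, netrin-1, binds Dcc, which attracts axons, or Unc5 receptors, which repel them. In sympathetic neurons, semaphorin 3A and neuropilin-1 are known to position the ganglia and to repel sympathetic axons during development.

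The class 3 semaphorin genes show how unequal the members' levels were. *Sema3d*, *Sema3a*, *Sema3e* and *Sema3c* lie together on mouse chromosome 5 within 5.35 Mb (GRCm38.p6), and their mean levels over the 4 libraries were 0.583, 0.0175, 1.64 and 15.7 FPKM (fragments per kilobase of transcript, scaled to the reads of the library). The RefSeq promoters of 3 of them and of *Epha8*, an Eph receptor gene with few reads, are printed here because they show members of high and low CpG number at high and low levels. Each runs from 250 bases before to 50 bases after the annotated start, 5′ to 3′ on the gene's strand, with every CpG (the letters CG, which read the same on both strands, adjacent pairs counted separately) in capitals.
Sema3d (chr5:12382916-12383215, plus strand): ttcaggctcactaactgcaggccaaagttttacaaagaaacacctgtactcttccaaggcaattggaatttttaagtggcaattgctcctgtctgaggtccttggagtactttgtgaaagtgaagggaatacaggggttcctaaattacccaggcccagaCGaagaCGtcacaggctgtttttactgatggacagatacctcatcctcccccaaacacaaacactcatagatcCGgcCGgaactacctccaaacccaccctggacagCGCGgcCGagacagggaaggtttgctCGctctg
Sema3e (chr5:14025026-14025325, plus strand): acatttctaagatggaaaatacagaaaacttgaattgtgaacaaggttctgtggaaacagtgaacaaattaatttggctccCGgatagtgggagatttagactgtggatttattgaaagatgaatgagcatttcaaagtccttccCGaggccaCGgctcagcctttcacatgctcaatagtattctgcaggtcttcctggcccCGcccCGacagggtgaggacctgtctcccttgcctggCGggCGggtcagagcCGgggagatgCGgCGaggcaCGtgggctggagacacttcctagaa
Sema3c (chr5:17574566-17574865, plus strand): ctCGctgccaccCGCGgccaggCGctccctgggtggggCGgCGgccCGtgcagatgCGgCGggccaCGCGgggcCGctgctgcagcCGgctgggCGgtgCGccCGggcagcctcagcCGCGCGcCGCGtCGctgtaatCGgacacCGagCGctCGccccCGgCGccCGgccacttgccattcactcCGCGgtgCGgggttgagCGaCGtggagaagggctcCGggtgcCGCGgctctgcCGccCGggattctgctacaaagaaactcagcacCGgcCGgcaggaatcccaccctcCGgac
Epha8 (chr4:136956767-136957066, minus strand): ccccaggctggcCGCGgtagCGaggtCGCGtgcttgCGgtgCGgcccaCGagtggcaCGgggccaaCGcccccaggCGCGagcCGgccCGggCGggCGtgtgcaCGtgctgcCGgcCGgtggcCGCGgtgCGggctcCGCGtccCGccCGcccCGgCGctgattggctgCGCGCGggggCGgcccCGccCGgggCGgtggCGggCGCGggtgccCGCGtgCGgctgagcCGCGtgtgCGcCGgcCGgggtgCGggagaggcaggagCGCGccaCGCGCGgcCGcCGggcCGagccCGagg

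The *Sema3d* promoter holds 8 CpG, that of *Sema3e* 11 and that of *Sema3c* 42. Of the 32851 promoters of the same length in the table, 48.65% held at least as many as *Sema3d*, 41.4% as many as *Sema3e* and 3.03% as many as *Sema3c*. Among these 3 genes the order of CpG number was the order of level, but *Epha8* goes the other way: it has 56 CpG, the most of any member with a promoter, and its level was 0.115 FPKM. The table's start for *Sema3a* lies 272 kb inside the gene, so its promoter is not printed.

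In all, 59 members had a promoter in the table, with a median of 19 CpG per promoter against 7 over all promoters. That background was not matched to the members by gene type or level. Taking the start with most CpG of each gene, the median was 24 for the 44 members at 1 FPKM or more and 17 for the 15 members below that level. Over these 59 genes, Spearman's rho of CpG number and mean FPKM was 0.26 and Pearson's r with log2 FPKM was 0.25, a weak relation over genes that share libraries and, within families, ancestry. Exceptions stood on both sides. *Sema4f*, at 16.9 FPKM, had 7 CpG, and *Plxnb3*, at 12.0 FPKM, had 4. For 10 of the 59 genes, *Sema3a* among them, every start in the table lay more than 1 kb inside the gene. Over the other 49, a check added after seeing the data, rho was 0.21 and r was 0.17.

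**Figure D1:**
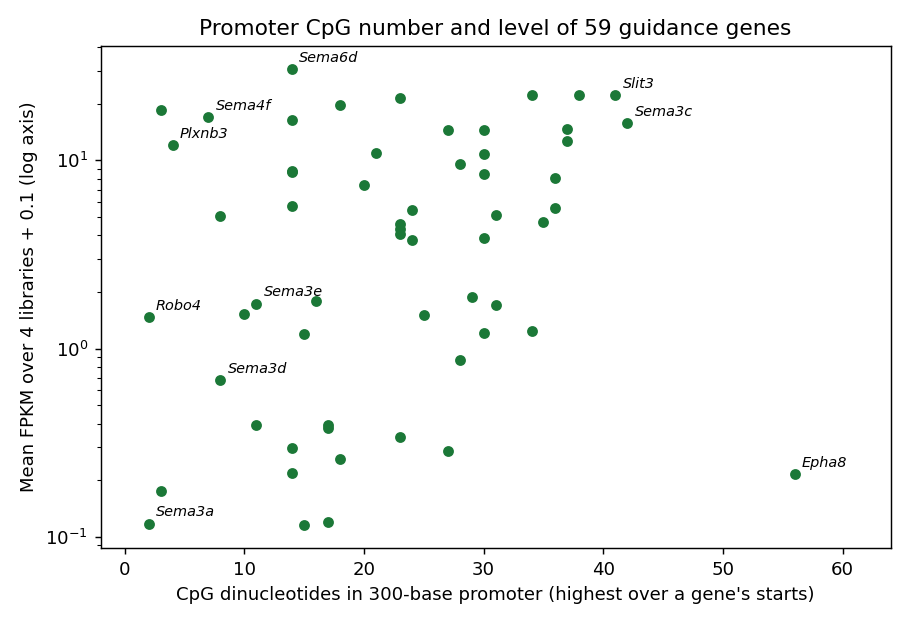
Number of CpG dinucleotides in the 300-base RefSeq promoter (x axis, highest over a gene's starts) against mean FPKM over the 4 libraries plus 0.1 (y axis, log scale) for 59 guidance genes, 1 point per gene. *Sema3c* with 42 CpG sits near the top and *Epha8* with 56 near the bottom, while *Sema4f* with 7 CpG lies at 16.9 FPKM.

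The targeted gene was not lower in the library labelled TRKC+/-. *Ntrk3* had 78 reads in WT 1, 83 in WT 2, 91 in the library labelled TRKC+/- and 76 in AdNTF3-Tg. The counts cover the whole gene, and which part the allele disrupts is not given in the sources used here. *Ntf3*, the NT-3 gene, was listed with 2 reads in the library labelled TRKC+/- and in no other library.

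The libraries were of like depth, with between 8665955 and 8894985 reads on genes. Markers of sympathetic neurons were high in all of them, with 8 of 8 listed and summed levels between 8536 and 9207 FPKM, led by *Th*. Satellite glia markers (led by *Fabp7*) summed to between 457 and 611 FPKM, Schwann cell markers (*Pmp22*) to between 568 and 603, fibroblast markers (*Dcn*) to between 248 and 324, smooth muscle and pericyte markers (*Tagln*) to between 90.6 and 114, macrophage markers (*C1qa*) to between 69.6 and 94.0, endothelial markers (*Pecam1*) to between 33.6 and 39.1, and sensory neuron markers (*Avil*) to between 198 and 215 FPKM. Skeletal muscle markers (*Acta1*) summed to 83.5 FPKM in WT 1, 2.68 in WT 2, 39.5 in the library labelled TRKC+/- and 30.9 in AdNTF3-Tg. Adipocyte markers (*Fabp4*) summed to 366, 333, 200 and 269 FPKM. In the edgeR tests against WT, with TMM factors and low counts filtered, 1 gene had an adjusted p under 0.05, the adipocyte gene *Ucp1*, lower in the library labelled TRKC+/- (edgeR, adjusted p = 0.00205). With library totals 5 genes passed in AdNTF3-Tg. In the library labelled TRKC+/- it was 4 genes, while without the filter 0 genes passed in either comparison, *Ucp1* included. The part of muscle and fat RNA in the members' values was not tested.

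Adult SG held transcripts of every guidance family. Of the 70 members, 51 (72.9%) had a mean of at least 1 FPKM, close to the 72.3% of all listed genes, and 19 (27.1%) had at least 10 FPKM, against 38.5% of all genes. The median member stood at 3.95 FPKM and the median of all genes at 5.66 FPKM. The members listed in all 4 libraries numbered 63. The other 7 were *Epha1*, *Epha3*, *Epha6*, *Ntn5*, *Sema3a*, *Unc5d* and *Plxna4os1*, each with 12 reads or fewer in any library, and a gene without a listing is not shown to be absent at this depth. Since each library is of pooled whole ganglia, fewer cells of a type and less RNA per cell cannot be told apart in any of these values.

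**Figure D2:**
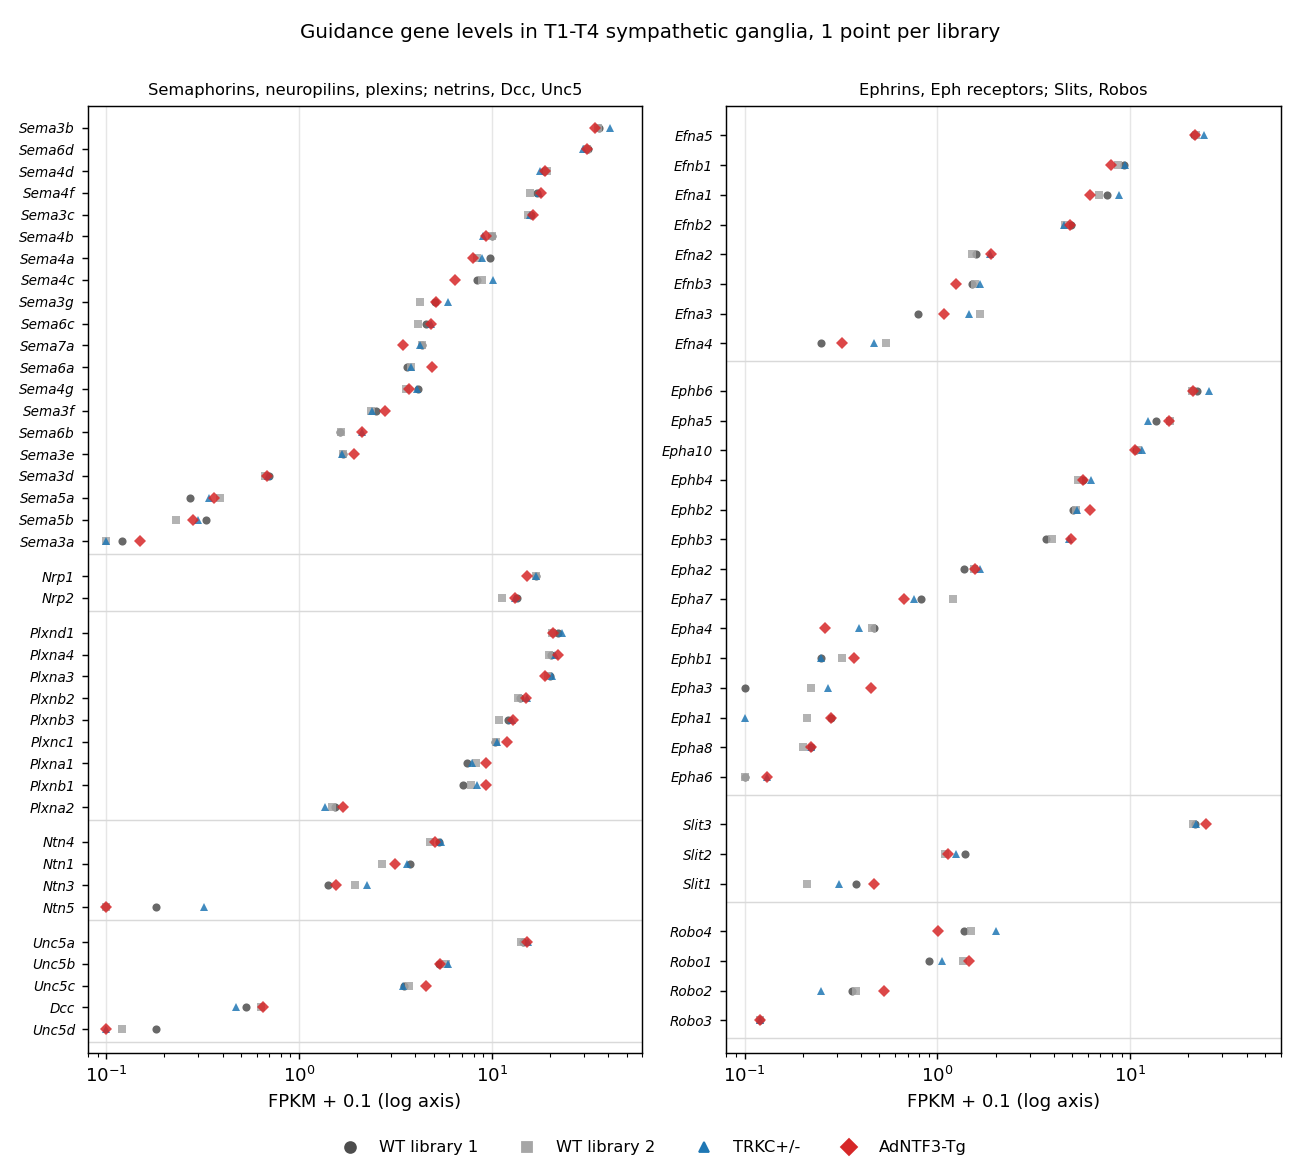
Level of the 69 protein-coding guidance genes (x axis, FPKM plus 0.1 on a log scale) by family, with 1 point for each of the 4 libraries and genes without a listing drawn at 0.1. The points of a gene lie close together at high levels, as for *Sema6d* between 29.5 and 31.3 FPKM, and apart at low levels, as for *Robo2* between 0.15 and 0.43 FPKM.

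Among semaphorin ligands, *Sema3b*, a secreted semaphorin (Entrez 20347, chr9:107597674-107609241), was the member with the highest mean level. It read 35.8 FPKM in WT 1, 35.1 in WT 2, 40.5 in the library labelled TRKC+/- and 33.9 in AdNTF3-Tg. *Sema6d*, a transmembrane ligand of plexin-A1 (Entrez 214968, chr2:124089943-124667789), followed at 31.3, 30.7, 29.5 and 30.9 FPKM in the same order. The ranges of these 2 genes did not overlap, and no other member reached the lower one. *Sema4d*, a transmembrane ligand of plexin-B1 (Entrez 20354, chr13:51685529-51793678), read 18.4, 19.1, 17.5 and 18.6 FPKM, and *Sema4f* between 15.6 and 17.8 FPKM, so that the ranges of this pair overlapped. *Sema3c*, the only secreted semaphorin besides *Sema3b* above 10 FPKM, kept to between 15.2 and 16.1 FPKM.

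The semaphorin best known in sympathetic axon repulsion was close to undetected. *Sema3a* had 1 read in WT 1, 3 reads in AdNTF3-Tg and no listing in the other libraries. *Sema3f*, which acts through neuropilin-2, was listed between 2.24 and 2.69 FPKM, and *Sema3g* between 4.12 and 5.79 FPKM. Class 5 was low throughout, with *Sema5a* between 0.17 and 0.29 FPKM and *Sema5b* between 0.13 and 0.23 FPKM. Of the 20 semaphorins, 16 had a mean of at least 1 FPKM and 5 of at least 10 FPKM.

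Receptors for semaphorins were all detected. All 9 plexins and both neuropilins had a mean above 1 FPKM, and 6 plexins and both neuropilins above 10 FPKM. *Plxnd1*, which encodes the receptor of semaphorin 3E and is also prominent in blood vessels (Entrez 67784, chr6:115954811-115995339), read 21.8 FPKM in WT 1, 20.4 in WT 2, 22.8 in the library labelled TRKC+/- and 20.7 in AdNTF3-Tg. *Plxna4*, a signalling partner of neuropilin-1 in sympathetic neurons (Entrez 243743, chr6:32144543-32588192), read 20.1, 19.7, 21.0 and 21.8 FPKM, and *Plxna3*, its relative that works mostly with neuropilin-2 (Entrez 18846, chrX:74328290-74344689), read 19.9, 19.4, 20.3 and 18.7 FPKM. *Plxna4* overlapped with both others, so its place in the order is not larger than the spread between libraries, whereas every value of *Plxnd1* was above every value of *Plxna3*. *Nrp1* lay between 15.1 and 16.8 FPKM and *Nrp2* between 11.1 and 13.4 FPKM. *Nrp2* had fractional read counts in every library, so part of its reads was shared with another gene or transcript. *Plxna2* was the lowest plexin, between 1.26 and 1.59 FPKM.

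For contact signalling, 1 ephrin and 3 Eph receptors had a mean above 10 FPKM. *Efna5*, a lipid-anchored ephrin (Entrez 13640, chr17:62602957-62881317), read 21.3 FPKM in WT 1, 21.7 in WT 2, 24.0 in the library labelled TRKC+/- and 21.6 in AdNTF3-Tg. *Efnb1*, a transmembrane ephrin, lay between 7.79 and 9.23 FPKM, and *Efna1* between 6.10 and 8.68 FPKM. *Efna1*, *Efna3* and *Efna4* are neighbours on chromosome 3, with gaps of 32.9 kb and 10.5 kb, and their mean levels were 7.26, 1.15 and 0.295 FPKM.

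*Ephb6*, which encodes an Eph receptor without kinase activity (Entrez 13848, chr6:41603834-41620509), read 22.0 FPKM in WT 1, 20.8 in WT 2, 25.3 in the library labelled TRKC+/- and 21.0 in AdNTF3-Tg. *Epha5*, a receptor of A-type ephrins (Entrez 13839, chr5:84054761-84417818), read 13.5, 15.9, 12.3 and 15.7 FPKM, and *Epha10*, another receptor that lacks kinase activity, lay between 10.5 and 11.4 FPKM. In *Epha5* the log2 ratio was -0.24 for WT 1 over WT 2. For AdNTF3-Tg it was 0.22 over WT 1 and -0.02 over WT 2, and for the library labelled TRKC+/- it was -0.13 and -0.37. Below these stood *Ephb4*, *Ephb2* and *Ephb3*, with means of 5.65, 5.35 and 4.23 FPKM. Of the 14 Eph receptors, 7 had a mean below 1 FPKM, among them *Epha4*, *Epha7*, *Ephb1* and *Epha3*. Neighbours on a chromosome differed widely in this family too. *Ephb6* lies 738 kb from *Epha1*, at 22.3 against 0.118 FPKM, and *Ephb2* lies 93.1 kb from *Epha8*, at 5.35 against 0.115 FPKM.

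The Slit and Robo system was lopsided. *Slit3*, a secreted ligand (Entrez 20564, chr11:35121456-35708507), read 21.6 FPKM in WT 1, 21.1 in WT 2, 21.7 in the library labelled TRKC+/- and 24.5 in AdNTF3-Tg. *Slit2* lay between 1.00 and 1.29 FPKM, and *Slit1* had between 5 and 17 reads. The highest mean of a Robo was 1.38 FPKM, and the 4 receptors together summed to 2.35 FPKM in WT 1, 2.95 in WT 2, 3.05 in the library labelled TRKC+/- and 2.72 in AdNTF3-Tg. In contrast, the 3 Slits summed to between 22.2 and 25.9 FPKM. *Robo3* had 1 read in each library. *Robo4*, the family member typical of blood vessels, read 1.27, 1.40, 1.92 and 0.91 FPKM, and *Robo1*, a neuronal receptor of Slits, read 0.80, 1.25, 0.96 and 1.36 FPKM. The ranges of this pair overlapped, and *Robo1* was the higher one in AdNTF3-Tg.

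Of the netrin receptors, 3 of the 4 repulsive Unc5 genes stood above *Dcc*. *Unc5a* (Entrez 107448, chr13:54945151-55006018) read 14.3 FPKM in WT 1, 14.0 in WT 2, 15.2 in the library labelled TRKC+/- and 15.0 in AdNTF3-Tg. *Unc5b* lay between 5.18 and 5.78 FPKM and *Unc5c* between 3.36 and 4.43 FPKM, while *Dcc* lay between 0.37 and 0.55 FPKM with 34 to 50 reads. The lowest value of *Unc5c* was thus several times the highest of *Dcc*. Among ligands, *Ntn4* lay between 4.67 and 5.35 FPKM, *Ntn1*, the classical netrin, between 2.58 and 3.63 FPKM, and *Ntn3* between 1.30 and 2.15 FPKM. *Unc5d* and *Ntn5* had 6 reads or fewer.

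The members' levels moved little over the 4 libraries. For the 63 members listed in all of them, the median difference between the highest and the lowest log2(FPKM + 0.1) was 0.28, against 0.31 over all 15275 such genes. It was under 0.5 for 49 members (77.8%) and for 71.0% of all genes. Among the 54 members with at least 20 reads on average it was under 0.5 for 47 (87.0%), against 81.9% of all genes with as many reads. The 19 members with at least 10 FPKM were all under it, as were 95.3% of all genes at that level, with medians of 0.16 and 0.20. The members' spread was thus close to that of other genes. The steadiest of these 19 were *Sema3c* and *Sema6d*, both at 0.08. The largest spreads were in genes with few reads, such as *Slit1* (1.16), *Robo2* (1.08), *Efna3* (1.07) and *Robo4* (1.00).

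**Figure D3:**
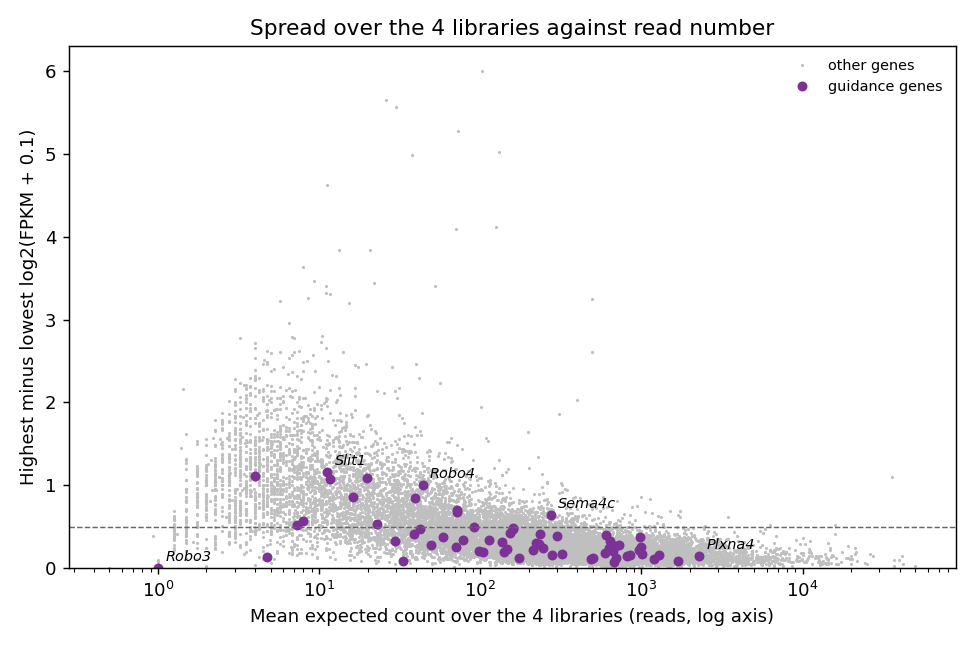
Difference between the highest and the lowest log2(FPKM + 0.1) over the 4 libraries (y axis) against the mean expected count (x axis, log scale), for 63 guidance genes in purple and all other genes listed in 4 libraries in grey, with a dashed line at 0.5. The guidance genes follow the grey cloud, with spreads above 0.5 mainly at low read counts, and *Sema4c* at 0.64 has the most reads of those above the line.

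The difference between the 2 WT pools is the only spread within a genotype. Each mutant line had its own WT controls, so these pools may come from different lines, and line and pool cannot be told apart in it. By a cutoff of 0.5 on the log2(FPKM + 0.1) scale, 7 of 63 members (11.1%) lay apart between WT 1 and WT 2, against 13.4% of all genes. Of these, *Robo1*, *Epha7* and *Sema5a* had at least 20 reads on average. *Robo1* had 52 reads in WT 1, 83 in WT 2, 64 in the library labelled TRKC+/- and 90 in AdNTF3-Tg, so WT 2 and AdNTF3-Tg stood above the other pair. *Epha7* had 35, 54, 39 and 29 reads in the same order, with WT 2 alone high. The transcript length that the authors' tool assigned to *Epha7* was 6732 bases in the library labelled TRKC+/- and between 5542 and 5866 bases in the others, which lowers its FPKM there. *Sema5a* had 16, 28, 23 and 25 reads, with WT 1 low.

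The first comparison asks whether NT-3 made in adipocytes goes with altered guidance genes in the ganglia that innervate fat. No member passed edgeR's quasi-likelihood test with Benjamini-Hochberg adjustment over all genes in AdNTF3-Tg against WT. The count was 0 of the 60 members with enough reads, and 0 of all 14156 genes tested (0%). The lowest adjusted p was 0.817 among members and 0.491 among all genes. At an unadjusted p under 0.05 there were 4 members (6.67%, against 5.88% of all genes), 3 of them higher (5%, against 2.59%) and 1 lower (1.67%, against 3.28%). DESeq2 gave 0 members at an adjusted p under 0.05 (0% of all genes) and 0 at an unadjusted one (0.438%). The spread in these tests has 1 residual degree of freedom, from the WT pair, and edgeR moderates it over all genes (median prior degrees of freedom 6.79). The single mutant library is assumed to vary like the WT pair. A p-value here thus measures only the spread between these pools, taken in part from other genes.

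The 4 genes at an unadjusted p under 0.05, named after their values were seen, were 3 of the semaphorin and plexin system and 1 netrin receptor. *Plxnb1*, the receptor of semaphorin 4D, had 516 reads in WT 1, 576 in WT 2, 627 in the library labelled TRKC+/- and 694 in AdNTF3-Tg. Its log2 fold change in AdNTF3-Tg was 0.34 ± 0.12 (SE, edgeR, unadjusted p = 0.0202, adjusted p = 0.817). *Sema6a*, a transmembrane ligand of A-type plexins, had 210, 223, 225 and 286 reads, and AdNTF3-Tg stood above 3 libraries that lay together. *Unc5c* had 272, 294, 277 and 361 reads, with the same order of AdNTF3-Tg above the rest. *Sema4c*, a ligand of plexin-B2, had 269, 289, 332 and 209 reads, lowest in AdNTF3-Tg and highest in the library labelled TRKC+/-. In AdNTF3-Tg the log2 fold change was 0.40 ± 0.15 for *Sema6a*, 0.35 ± 0.14 for *Unc5c* and -0.42 ± 0.15 for *Sema4c* (SE, edgeR, adjusted p = 0.817 for each).

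By the cutoff of 0.5 in the same direction against both WT libraries, which is no test, 0 members were higher in AdNTF3-Tg (2.12% of all genes) and 1 was lower (3.58% of all genes). The lower one was *Epha4*, an Eph receptor that binds ephrins of both classes, with 20 reads in WT 1, 20 in WT 2, 16 in the library labelled TRKC+/- and 9 in AdNTF3-Tg. Its log2 ratios of -0.85 and -0.82 rest on these few reads, and both exact 95% counting intervals reached 0 (from -2.49 to 0.02 and from -2.46 to 0.05). With WT 1 left out, 1 member was higher and 5 were lower, and with WT 2 left out, 3 were higher and 1 was lower. *Robo1*, *Robo2* and *Ephb1* were past the cutoff only against WT 1, and *Slit1*, *Efna3*, *Efna4*, *Epha7* and *Robo4* only against WT 2. In single pairs, 4 members lay apart from WT 1 (13.9% of all genes did) and 6 from WT 2 (13.3%).

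A rule on counting error alone was added after seeing the data. In AdNTF3-Tg, 8 members had a counting interval above 0 against both WT libraries (12.7%, against 4.84% of all genes). These were *Plxna1*, *Plxna4*, *Plxnb1*, *Plxnc1*, *Sema6a*, *Slit3*, *Unc5c* and *Ephb3*. The interval was below 0 for *Nrp1* and *Sema4c* (3.17%, against 5.31%). *Plxna4* is the member with most reads, at 2189 in WT 1, 2185 in WT 2, 2346 in the library labelled TRKC+/- and 2406 in AdNTF3-Tg. *Nrp1*, its co-receptor, had 859, 866, 878 and 779 reads. These intervals hold no spread between pools, and no member in them passed the edgeR test.

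Of the 9 plexins, 7 read above both WT libraries in AdNTF3-Tg at any size, and their summed level was 113 FPKM in WT 1, 111 in WT 2, 119 in the library labelled TRKC+/- and 121 in AdNTF3-Tg. The median log2 fold change of the 9 was 0.17 in AdNTF3-Tg, where it was 0.07 over all members tested and -0.00 over all genes. The plexins were singled out after their values were seen. Other families' medians in AdNTF3-Tg were 0.41 for 3 Robos, 0.20 for 3 Slits, 0.15 for Dcc and the Unc5 receptors, 0.10 for 11 Eph receptors, 0.03 for 18 semaphorins, -0.02 for 3 netrins, -0.02 for 2 neuropilins and -0.19 for 7 ephrins. In the library labelled TRKC+/- 7 of 9 plexins also read above both WT libraries, with a median of 0.08, and both counts use the same WT libraries. Over the 63 members, 27 (42.9%) were above both WT libraries at any size, where 33.7% of all genes were, and 14 (22.2%) were below both, where 34% were. These shares are descriptions of 1 library against 2, and the members of a family are not replicates.

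**Figure D4:**
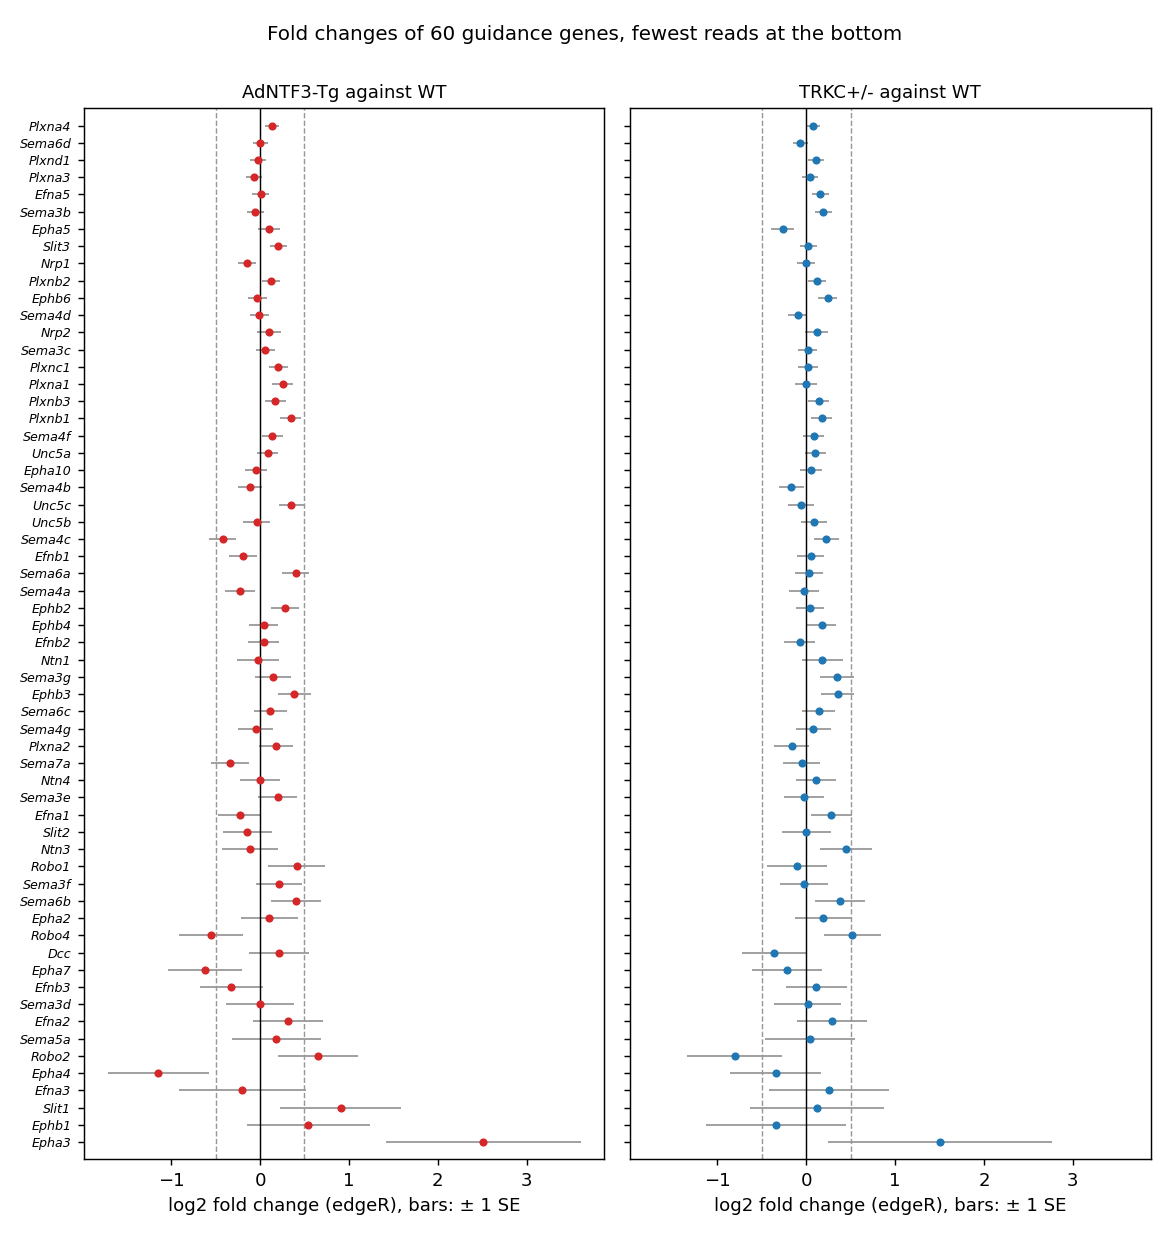
Log2 fold change against WT (x axis, edgeR, bars 1 SE to each side) for the 60 guidance genes tested, in AdNTF3-Tg (left) and in the library labelled TRKC+/- (right), ordered from most reads at the top to fewest at the bottom, with dashed lines at -0.5 and 0.5. Genes with many reads lie near 0 in both, and values past the dashed lines occur at the bottom, where *Epha3*, without a listing in WT 1, has the longest bars.

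The second comparison asks the same of the library labelled TRKC+/-, in which *Ntrk3* was not lower. In that library, 0 of 60 members passed the adjusted edgeR test (0.00706% of all genes) and 0 had an unadjusted p under 0.05 (1.93% of all genes). The lowest adjusted p of a member was 0.999. DESeq2 also gave 0 members at an adjusted (0.0141% of all genes) and 0 at an unadjusted p under 0.05 (0.155%). The median log2 fold change was 0.07 over members, with 42 of 60 above 0, and -0.00 over all genes, with 7003 of 14156 above 0. In AdNTF3-Tg 35 of 60 members and 6998 of all genes were above 0, and both comparisons use the same WT libraries.

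By the cutoff against both WT libraries, 0 members were higher in the library labelled TRKC+/- (1.78% of all genes) and 1 was lower (2.49%). It was *Robo2*, a neuronal receptor of Slits, with 18 reads in WT 1, 20 in WT 2, 11 in the library labelled TRKC+/- and 30 in AdNTF3-Tg. Its log2 ratios in the library labelled TRKC+/- were -0.53 and -0.60, with counting intervals from -1.98 to 0.41 and from -2.08 to 0.26. With WT 1 left out, 1 member was higher and 2 were lower, and with WT 2 left out, 4 were higher and 1 was lower. *Robo4*, *Ntn3*, *Efna3* and *Efna4* were past the cutoff only against WT 1, and *Slit1* and *Epha7* only against WT 2. In single pairs, 5 members lay apart from WT 1 (10.7% of all genes did) and 3 from WT 2 (12.7%).

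The counting interval lay above 0 against both WT libraries for 3 members (4.76%, against 2.34% of all genes). All 3 have many reads, and because the interval narrows with read number, small shifts pass it only in such genes. *Sema3b* had 960 reads in WT 1, 958 in WT 2, 1115 in the library labelled TRKC+/- and 924 in AdNTF3-Tg. *Ephb6* had 708, 682, 835 and 682 reads, and *Efna5* had 960, 999, 1112 and 987 reads. In each, the library labelled TRKC+/- stood above 3 others. On the log2 scale the differences from WT were 0.19 ± 0.09, 0.24 ± 0.10 and 0.16 ± 0.09 (SE, edgeR, adjusted p = 0.999 for each). The interval was below 0 for 0 members (2.12% of all genes). At any size, 31 members (49.2%) were above both WT libraries and 13 (20.6%) below, where 31.9% and 30.8% of all genes were.

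The study looked for genes that go opposite ways in the 2 mutants. With the cutoff asked against both WT libraries, 0 members were past it one way in AdNTF3-Tg and the other way in the library labelled TRKC+/- (0.183% of all genes were). With a single, different WT library for each mutant, a count added after seeing the data, the answer depended on the pairing. With AdNTF3-Tg against WT 2 and the library labelled TRKC+/- against WT 1, 3 members went opposite ways (4.76%, against 2.36% of all genes). They were *Robo4*, *Efna3* and *Efna4*, each lower in AdNTF3-Tg. *Efna3* had 7 reads in WT 1, 16 in WT 2, 14 in the library labelled TRKC+/- and 10 in AdNTF3-Tg, and *Efna4* had 2, 6, 5 and 3. Both ephrins were among the 7 members apart between the WT libraries, and each mutant value lay between the 2 WT values, so their opposite directions follow from which WT library each mutant was set against. With the other pairing it was 1 member (1.59%, against 2.99%), *Robo2*, higher in AdNTF3-Tg. Of these, *Robo4* had the most reads, at most 62 in a library. In the direct edgeR comparison of the 2 mutant libraries, added after seeing the data, 0 of 60 members had an adjusted p under 0.05 (0.00706% of all genes), with a lowest adjusted p of 0.940, and 5 had an unadjusted p under 0.05 (4.68% of all genes). *Sema4c* and *Robo4* were lower and *Robo2*, *Epha5* and *Unc5c* higher in AdNTF3-Tg. The log2 difference was -0.64 ± 0.17 for *Sema4c*, -1.07 ± 0.39 for *Robo4* and 1.46 ± 0.57 for *Robo2* (SE, edgeR, adjusted p = 0.940 for each). *Robo4* had 40 reads in WT 1, 45 in WT 2, 62 in the library labelled TRKC+/- and 29 in AdNTF3-Tg, and the summed level of 6 endothelial markers was 38.5, 35.1, 39.1 and 33.6 FPKM in the same libraries. The part of vessel content in *Robo4* was not tested.

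No member passed the adjusted test under other fits. With library totals in place of TMM factors, 0 members had an adjusted p under 0.05 in AdNTF3-Tg (0.0353% of all genes) and 0 in the library labelled TRKC+/- (0.0283%). When low counts were not filtered, 0 members passed in either (0% of all genes in both).

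Signalling genes downstream gave no call by the adjusted test either. The 5 lists of 76 symbols held effectors, regulators and co-receptors of the 4 systems. They stand for 75 genes, all listed in every library, since *Grb4* is another name of *Nck2*, which the lists also hold. In both comparisons 0 of the 74 tested had an adjusted p under 0.05, and at an unadjusted one there were 2 in AdNTF3-Tg (*Siah1a* and *Vegfa*, where 5.88% of all genes were called) and 0 in the library labelled TRKC+/- (1.93%). By the cutoff against both WT libraries, 2 were lower in AdNTF3-Tg (3.58% of all genes) and 0 in the library labelled TRKC+/- (2.49%). *Siah1a*, a ubiquitin ligase that acts on Dcc, read 11.7 FPKM in WT 1, 12.0 in WT 2, 10.1 in the library labelled TRKC+/- and 7.68 in AdNTF3-Tg, with fractional reads. *Fes*, a tyrosine kinase in semaphorin signalling, had 68, 62, 64 and 40 reads. Median log2 fold changes of the 5 lists lay between 0.01 and 0.08 in AdNTF3-Tg and between -0.04 and 0.02 in the library labelled TRKC+/-.

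Some effectors were far above the receptors, while others, such as *Mical2* (3.6 FPKM on average) and *Farp2* (4.3), were not. Means over the lists ran from 0.0775 to 773 FPKM, and the genes named next are examples that were not past the cutoff. *Cfl1*, the actin-severing cofilin at the end of many guidance pathways, averaged 773 FPKM, and the adhesion molecule *L1cam* averaged 151 FPKM. *Dpysl3* and *Dpysl2*, collapsin response mediators that relay semaphorin signals, averaged 127 and 43.8 FPKM. *Neo1*, the relative of Dcc that also binds netrins, read between 11.6 and 11.9 FPKM in all libraries, where *Dcc* averaged 0.47 FPKM.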

How the data were processed

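Tables of 4 SG libraries were analysed. The authors selected poly(A) RNA, sequenced 50 bases of 1 end of each fragment and filtered the reads with SOAPnuke (v1.5.2). Their methods name HISAT2 (v2.0.4) and mm9, whereas the submitters' processing notes name RSEM and mm10, and strand use is not given in the sources used here. For each Entrez gene the authors deposited an expected count, which is not normalized and need not be whole (92.6% to 93.7% were). The authors also deposited FPKM, which scales that count to gene length and library size. Genes without reads are not listed. The 17619 symbols matched (99.7% of identifiers), the positions and the promoters come from RefSeq on GRCm38.p6, the patch series of mm10.

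Expected counts were rounded and tested with edgeR 4.0.16 (quasi-likelihood, filterByExpr, TMM, 3 groups, R 4.3.3), and p-values were adjusted over 14156 genes. The biological coefficient of variation was 8.16%. DESeq2 1.42.0, library totals and no filter were alternatives. The labels tie neither WT pool to a mutant, the pools may be controls of different lines, and p-values measure only the spread between them, moderated over genes. Log2 ratios used FPKM + 0.1. Exact Clopper-Pearson 95% intervals of the share of reads in 1 of 2 libraries (scipy 1.17.1) cover counting error only. The direct comparison of the mutants, the opposite directions against single WT libraries, the limit on start positions and the interval rule were added after seeing the data. The edgeR step was tested on simulated data.

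Members and gene lists were chosen with earlier results of these data known. Named with values were the 3 members of highest mean FPKM per class, members past the cutoff of 0.5 with at least 20 reads on average, and markers and list genes by the same cutoff. Others, such as *Epha4*, *Robo2*, *Plxnb1*, *Sema4c*, *Sema6a* and *Unc5c*, were named after their values were seen.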

Additional observations from a re-analysis of the deposited data

How the results depend on the processing

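No count of members with an adjusted p under 0.05 moved from 0 with DESeq2, library totals, no filter or the direct comparison of the mutants. Over all genes the count of 0 in AdNTF3-Tg became 5 with library totals, and the count of 1 in the library labelled TRKC+/- became 2 with DESeq2, 4 with library totals and 0 with no filter. For counts by the cutoff of 0.5, the share of all genes past it under the same setting is given in parentheses. Against both WT libraries, the 0 members higher in AdNTF3-Tg became 1 with a pseudocount of 0.01 (2.79%), 1 with unlisted genes as 0 (3.96%), 1 with TMM-scaled counts (2.09%) and 8 by counting intervals (4.84%). The 1 lower became 0 with a pseudocount of 1 (0.786%), 0 at a mean of at least 1 FPKM (1.9%), 0 at a cutoff of 1 (0.779%) and 2 by counting intervals (5.31%). In the library labelled TRKC+/-, the 0 higher became 1 with unlisted genes as 0 (3.82%) and 3 by counting intervals (2.34%). The 1 lower became 0 with a pseudocount of 1 (0.406%), 0 at a mean of at least 1 FPKM (1.1%), 2 with unlisted genes as 0 (3.62%), 0 at a cutoff of 1 (0.556%) and 0 by counting intervals (2.12%). Leaving out either WT replicate gave 1 to 3 higher (5.62 to 6.21%) and 1 to 5 lower (7.1 to 8.24%) in AdNTF3-Tg, and 1 to 4 higher (4.63 to 6.74%) and 1 to 2 lower (5.92 to 6.06%) in the library labelled TRKC+/-. The 7 members apart between the WT libraries (13.4%) became 1 with a pseudocount of 1 (4.14%), 2 at a mean of at least 1 FPKM (7.26%), 11 with unlisted genes as 0 (19.1%) and 2 at a cutoff of 1 (3.5%). The number of members measured was 63, or 51 at a mean of at least 1 FPKM and 70 with unlisted genes as 0. Otherwise the cause was not tested. The 27 named members had 324 alternative values. Direction was compared with DESeq2, library totals and no filter, and 3 values near 0 reversed. These were *Sema6d* in AdNTF3-Tg (-0.0054 with library totals) and *Slit2* in the library labelled TRKC+/- (-0.00058 with DESeq2 and -0.0024 with no filter). Values from FPKM or without a WT library were compared only with the WT spread, and 6 moved past it. The remaining 315 met these limits, but changes of direction within the WT spread were not counted. Without WT 2, *Robo1* in the library labelled TRKC+/- went from -0.10 to 0.26 and *Epha7* from -0.21 to 0.12. The WT spread itself sets how far leaving out a WT library moves a value, so staying within it was largely fixed in advance. No paired analysis was possible because the mutant labels carry no replicate number. Without a WT library edgeR has no residual degree of freedom, so those tests were not run.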
